A study of Danio rerio with 6 samples.

Results

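Genes that were counted in each ddx4-E4Δ ovary and in no WT ovary beyond a few counts were drawn from the table of all genes. A gene was taken if it had at least 20 counts in each of the 3 ddx4-E4Δ libraries and at most 3 counts in each of the 3 WT libraries, and 32 of the 32519 genes in the table were chosen by these counts. The mirrored rule, with the genotypes exchanged, gave 40 genes. The rule reads the genotype contrast itself, so the difference between the genotypes in these 32 genes is a description and not a test.

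Ovaries were dissected at 6 months post-fertilization (mpf) from 3 ddx4-E4Δ and 3 WT zebrafish, which gave 6 RNA samples with 1 library each. The ddx4-E4Δ line (ddx4-L mutant) carries a short CRISPR-Cas9 deletion in the alternative exon of ddx4 that marks the ovary-biased transcript, while the transcript without that exon can still be made. The ddx4 gene (listed as DDX4, ENSDARG00000014373) had 19284, 18951 and 19856 counts in ddx4-E4Δ replicates 1, 2 and 3, against 16042, 18234 and 17771 counts in WT replicates 1, 2 and 3. The count of the whole gene is not an assay of the deleted exon and gave no check of the labels. The kinship of the WT fish to the mutant line is not given in the sources used here.

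Ddx4, also known as Vasa, is an RNA helicase of germ cells that works in germ granules and in the piRNA pathway, which keeps transposons silent. The zebrafish genome holds many families of near copies that lie side by side, and reads from such copies can be hard to assign to a single gene. Genes are named after a mammalian counterpart where one is known, while a name such as si:dkey-285b23.3 records only the sequenced clone on which the gene model was drawn.

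The column sums were 76520483 to 78770562 counts in ddx4-E4Δ and 76970351 to 86263179 counts in WT libraries (two-sided exact permutation p = 0.6 with 3 libraries each). In all 6 libraries 4 was the commonest value above 0, so about 4 counts were taken as 1 fragment, which makes 20 counts about 5 fragments and 3 counts less than 1. A level of 12 counts was taken as the lowest that can be told from 0, which is 0.142 to 0.161 CPM (counts relative to the TMM-scaled library size) in the WT libraries. The labelled tissue was checked on marker lists, in which 14 of 15 oocyte genes and 9 of 10 granulosa and theca genes had at least 20 counts in every library. The granulosa and theca list summed to 218 to 243 CPM in ddx4-E4Δ and 278 to 325 CPM in WT, lower in each ddx4-E4Δ library. None of the 32 genes is on a marker list. The liver markers, mostly vitellogenins, stood apart in ddx4-E4Δ replicate 2, with a summed 3188 CPM against 36.7 and 13.6 CPM in ddx4-E4Δ replicates 1 and 3 and 0.397 to 5.75 CPM in WT. Leukocyte markers summed to 34.0 to 86.2 CPM in ddx4-E4Δ and 19.8 to 62.6 CPM in WT, and stroma and muscle markers to 24.5 to 135.5 CPM in ddx4-E4Δ and 22.9 to 86.4 CPM in WT, with overlap between the genotypes in both lists. The part of these other cells in the results was not tested, and in whole ovaries fewer cells of a type cannot be told apart from less RNA per cell. Without ddx4-E4Δ replicate 2, the rule gave 49 genes, beside 40 without ddx4-E4Δ replicate 1 and 39 without ddx4-E4Δ replicate 3. Leaving out a library can only add genes to the rule.

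Of the 32 genes, 23 had 0 counts in every WT library. Of the other 9, 7 had counts in 1 WT library and 2 in 2 WT libraries, and 85 of the 96 WT values were 0. Together the 32 genes had 4005, 4210 and 4519 counts in ddx4-E4Δ replicates 1, 2 and 3, against 4, 13 and 10 counts in WT replicates 1, 2 and 3. Their summed level was 53.4 ± 4.7 CPM (SD, n = 3) in ddx4-E4Δ and 0.115 ± 0.059 CPM (SD, n = 3) in WT ovaries. Most of them were counted sparsely in the mutant. The mean count in ddx4-E4Δ libraries was under 40 in 6 genes, 40 to 100 in 18 genes and 100 or more in 8 genes, and the median of the mean CPM was 0.863, against 8.02 CPM over the 19353 genes tested. The 5 genes with the most counts held 57.1%, 60.4% and 55.0% of the summed counts in ddx4-E4Δ replicates 1, 2 and 3.

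**Figure D1:**
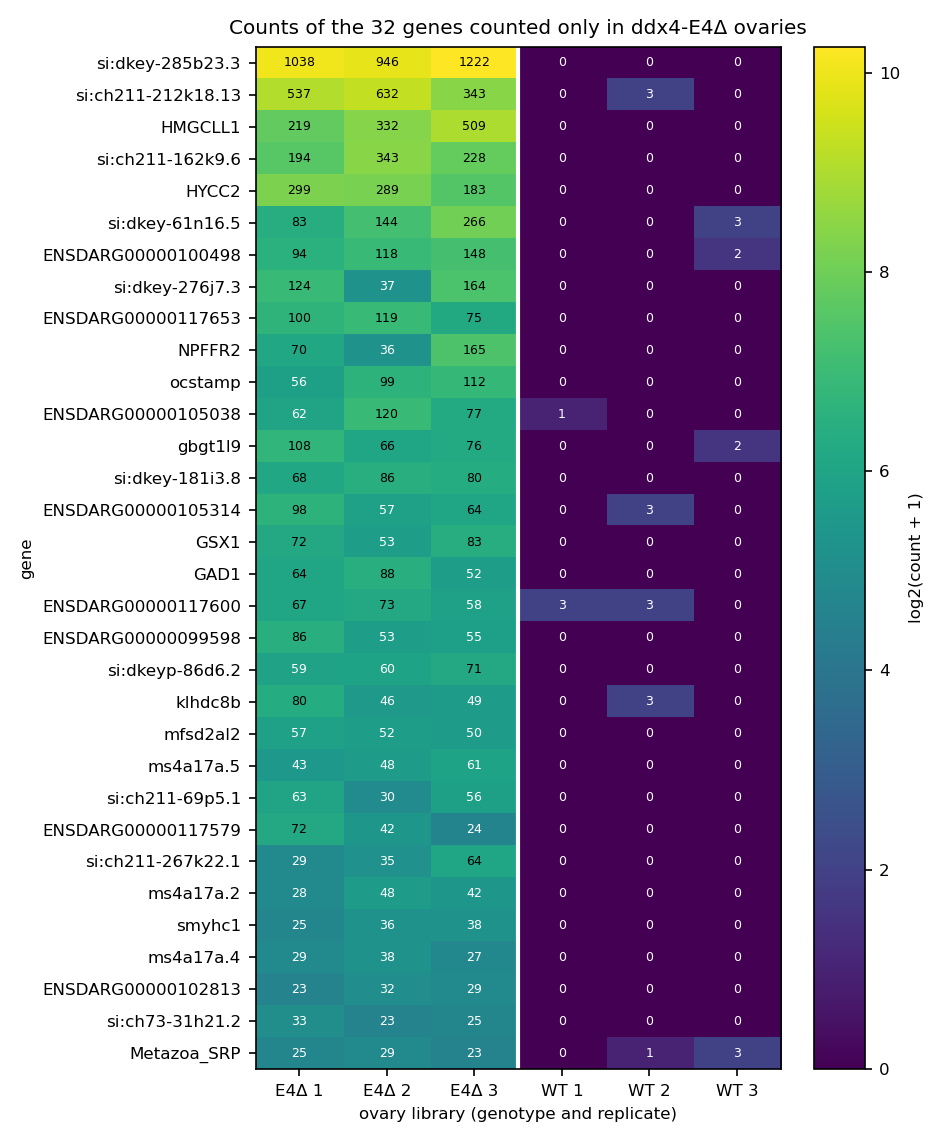
Deposited counts of the 32 genes (rows, by mean level in ddx4-E4Δ ovaries) in 3 ddx4-E4Δ and 3 WT ovary libraries (columns). Colour gives log2(count + 1) and the printed number is the count. Each ddx4-E4Δ value lies between 23 and 1222 and each WT value between 0 and 3.

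In the fit of the whole table by edgeR's quasi-likelihood test, all 32 genes passed the filter on low counts, which they could do through the ddx4-E4Δ libraries alone. Calls required Benjamini-Hochberg adjusted p-values under 0.05 together with a log2 fold change of 1 or more in either direction. Of the 32 genes, 31 were called as higher in ddx4-E4Δ ovaries, beside a background of 1.34% of the genes tested (3.11% in either direction). The rule had used the same contrast, so nothing is read from this count. The gene that was not called was the Metazoa_SRP copy, which had the fewest counts. DESeq2 called all 32, beside a background of 3.08%, while leaving out 1 library lowered edgeR's count to between 8, without ddx4-E4Δ replicate 3, and 23, without WT replicate 2. It was 11 without ddx4-E4Δ replicate 1, 13 without ddx4-E4Δ replicate 2, 20 without WT replicate 1 and 22 without WT replicate 3. Over the whole table, the genes called as higher fell as well. They went from 259 to between 122, without ddx4-E4Δ replicate 1, and 238, without WT replicate 2. Of the 32, 8 genes were called in each of these 6 fits, and all 8 had a mean of at least 86.3 counts in ddx4-E4Δ libraries.

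The 14 genes with a gene symbol included enzymes, membrane proteins and 1 transcription factor. HMGCLL1 (ENSDARG00000088740) had 219, 332 and 509 counts in ddx4-E4Δ replicates 1, 2 and 3 and 0 counts in each WT library. The ddx4-E4Δ libraries were all above the WT libraries, as the rule requires, but differed 2.44-fold among themselves in CPM. At 4.46 ± 1.90 CPM (SD, n = 3) the gene was at least 27.7-fold higher in ddx4-E4Δ than the level of 12 counts in a WT library.

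HYCC2 (ENSDARG00000113433) carries the symbol of a hyccin, a protein that helps to hold a phosphatidylinositol kinase complex at the plasma membrane. The table held it beside a gene listed as hycc2 (ENSDARG00000101696), and which reads tell the pair apart was not stated. HYCC2 had 299, 289 and 183 counts in ddx4-E4Δ replicates 1, 2 and 3 and 0 counts in each WT library. At 3.23 ± 0.80 CPM (SD, n = 3) it was at least 20.01-fold higher than the level of 12 counts in a WT library. The hycc2 gene was counted in all 6 libraries, with 1135, 1037 and 1087 counts in ddx4-E4Δ and 1636, 1214 and 1434 counts in WT replicates 1, 2 and 3. Its level of 13.6 ± 0.076 CPM in ddx4-E4Δ lay below the 18.4 ± 3.2 CPM of WT ovaries (SD, n = 3) without overlap, and its log2 fold change of -0.43 ± 0.168 (SE) did not pass edgeR's test (adjusted p = 0.21). The sign of HYCC2 was set by the rule and hycc2 was not called, so nothing is read from their opposite signs. How reads were split between them is uncertain.

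A pair of genes carries symbols known from signalling in the nervous system, and their role in the ovary was not tested. GAD1 (ENSDARG00000093411) carries the symbol of glutamate decarboxylase, the enzyme that makes the transmitter GABA. It had 64, 88 and 52 counts in ddx4-E4Δ replicates 1, 2 and 3 and 0 counts in each WT library. The other gene of that symbol (ENSDARG00000027419) had 9, 17 and 11 counts in ddx4-E4Δ and 16, 11 and 11 counts in WT replicates 1, 2 and 3, around the limit of 12 counts in both genotypes. GAD2 (ENSDARG00000015537), the second decarboxylase, had 175, 199 and 267 counts in ddx4-E4Δ and 255, 346 and 255 counts in WT replicates 1, 2 and 3, and its log2 fold change of -0.45 did not pass edgeR's test (adjusted p = 0.49). The gad3 gene (ENSDARG00000055370) had 0, 5 and 13 counts in ddx4-E4Δ and 0 counts in each WT library, too few to be tested. NPFFR2 (ENSDARG00000033635) carries the symbol of a receptor for the neuropeptide FF. It had 70, 36 and 165 counts in ddx4-E4Δ replicates 1, 2 and 3 and 0 counts in each WT library. This was the widest spread among the 32 genes, 4.42-fold in CPM between the highest and the lowest ddx4-E4Δ library. The other gene of that symbol (ENSDARG00000060702) had 286, 249 and 234 counts in ddx4-E4Δ and 263, 141 and 226 counts in WT replicates 1, 2 and 3, and its log2 fold change of 0.25 did not pass edgeR's test (adjusted p = 0.72).

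GSX1 (ENSDARG00000035735) encodes a homeodomain transcription factor known from the developing nervous system and was the only transcription factor that the symbols name. It had 72, 53 and 83 counts in ddx4-E4Δ replicates 1, 2 and 3 and 0 counts in each WT library, and GSX2 (ENSDARG00000043322) had 9, 0 and 0 counts in ddx4-E4Δ and 0, 9 and 9 counts in WT. The ocstamp gene (ENSDARG00000022139) encodes a membrane protein that promotes the fusion of osteoclast precursors in mammals. It had 56, 99 and 112 counts in ddx4-E4Δ replicates 1, 2 and 3 and 0 counts in each WT library. The mfsd2al2 gene (ENSDARG00000075375) belongs to the Mfsd2a family of lysophospholipid transporters. It had 57, 52 and 50 counts in ddx4-E4Δ replicates 1, 2 and 3 and 0 counts in each WT library, the narrowest spread of the 32 genes. The MFSD2A genes of the table were counted in both genotypes. MFSD2A (ENSDARG00000030630) had 8262, 6356 and 7840 counts in ddx4-E4Δ and 4705, 6354 and 6743 counts in WT, and MFSD2A (ENSDARG00000035909) had 13963 to 14415 counts in ddx4-E4Δ and 13134 to 13992 counts in WT libraries. Neither passed edgeR's test (adjusted p = 0.25 and 0.84). The klhdc8b gene (ENSDARG00000090787), which encodes a kelch repeat protein, had 80, 46 and 49 counts in ddx4-E4Δ and 0, 3 and 0 counts in WT replicates 1, 2 and 3. Its paralog klhdc8a (ENSDARG00000061000) had 109, 67 and 83 counts in ddx4-E4Δ and 106, 126 and 83 counts in WT, with overlap.

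**Figure D2:**
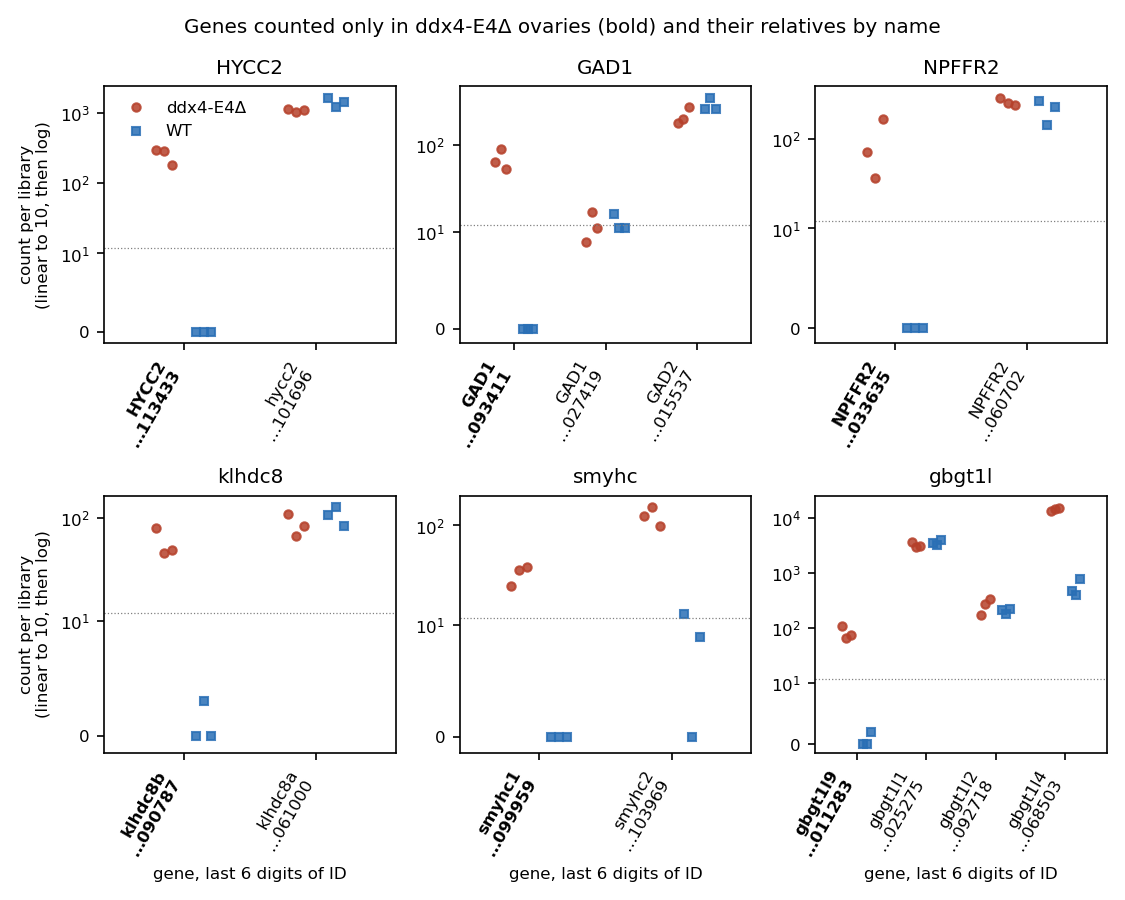
Counts per library (vertical axis, linear up to 10 and logarithmic above) of 6 genes counted only in ddx4-E4Δ ovaries (bold) and of genes related to them by name. Circles are ddx4-E4Δ and squares are WT libraries, 3 each, and the dotted line marks 12 counts. The relatives of HYCC2, GAD1, NPFFR2 and klhdc8b drawn here were counted in both genotypes, while smyhc2 and gbgt1l4 also lay higher in each ddx4-E4Δ library.

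Families were read from gene symbols alone, so genes with a clone-based name or without a symbol were given none. By symbol, the ms4a17a genes were the only family with more than 1 of the 32 genes. They encode small proteins that cross the membrane several times and are related to mammalian CD20. The table held 14 ms4a17a genes, 3 of which met the rule. ms4a17a.5 (ENSDARG00000092204) had 43, 48 and 61 counts, ms4a17a.2 (ENSDARG00000105674) had 28, 48 and 42 counts, and ms4a17a.4 (ENSDARG00000014024) had 29, 38 and 27 counts in ddx4-E4Δ replicates 1, 2 and 3. All 3 had 0 counts in each WT library. In RefSeq's gene order (assembly GRCz12tu, not the build of the files) ms4a17a.5 and ms4a17a.2 were next to each other, and ms4a17a.4 lay further along the same run of ms4a17a genes.

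On the other side of ms4a17a.5, with ms4a17a.8 between them, lay ms4a17a.9 (ENSDARG00000094854), which missed the rule because it was also counted in WT. It had 318, 616 and 315 counts in ddx4-E4Δ and 3, 10 and 25 counts in WT replicates 1, 2 and 3. It rose in ddx4-E4Δ ovaries by 5.05 ± 0.74 on the log2 scale (SE, adjusted p = 0.014, edgeR), and all 6 fits without 1 library also called it. Of the 11 ms4a17a genes outside the rule, 6 were tested. Of these 6, edgeR and DESeq2 each called 1 as higher (beside backgrounds of 1.34% and 3.08%) and 0 as lower (beside 1.77% and 3.6%). At an unadjusted p under 0.05, none was lower and 2 were higher (beside 9.96% lower and 9.98% higher of all genes tested). Their median log2 fold change was 1.17, beside 0.014 over all genes tested. ms4a17a.11 (ENSDARG00000094809) had 104, 34 and 79 counts in ddx4-E4Δ and 17, 26 and 31 counts in WT, without overlap, and did not pass the test (adjusted p = 0.19). In ms4a17a.6, ms4a17a.10, ms4a17a.16 and ms4a17a.17 the genotypes overlapped. Since these copies resemble each other and the handling of reads that fit several genes was not stated, the split of counts within the family is uncertain.

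**Figure D3:**
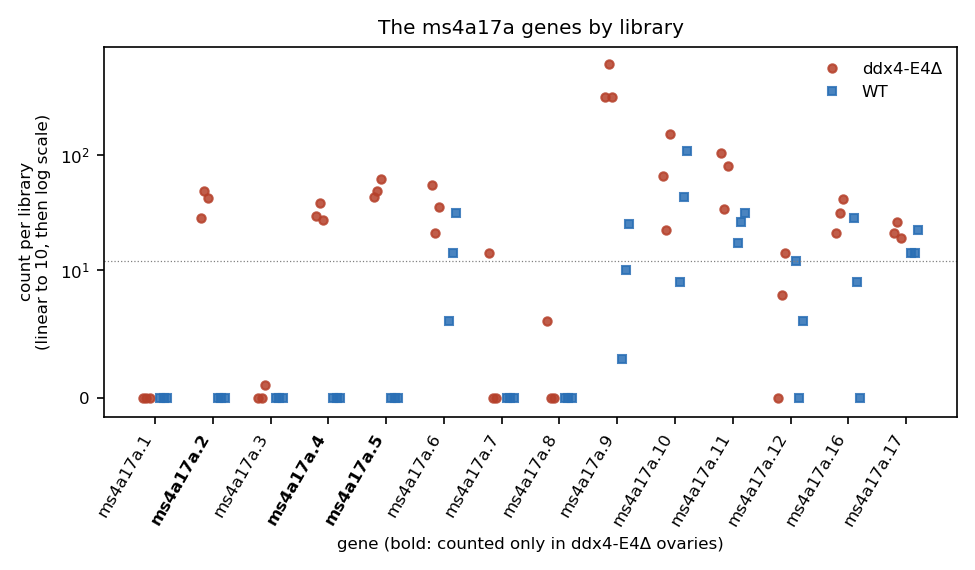
Counts per library (vertical axis, linear up to 10 and logarithmic above) of the 14 ms4a17a genes of the table in order of their number. Circles are ddx4-E4Δ and squares are WT libraries, 3 each, and the dotted line marks 12 counts. ms4a17a.2, ms4a17a.4 and ms4a17a.5 have WT values of 0 only, and ms4a17a.9 reaches 616 counts in ddx4-E4Δ against at most 25 in WT.

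The gbgt1l genes encode glycosyltransferases named after the mammalian enzyme that builds the Forssman glycolipid. The gbgt1l9 gene (ENSDARG00000011283) had 108, 66 and 76 counts in ddx4-E4Δ and 0, 0 and 2 counts in WT replicates 1, 2 and 3. In RefSeq's gene order it lay among its relatives, with gbgt1l1 on one side and gbgt1l2, gbgt1l8 and gbgt1l4 on the other. gbgt1l4 (ENSDARG00000068503) had 13676, 14700 and 15537 counts in ddx4-E4Δ and 467, 407 and 773 counts in WT replicates 1, 2 and 3. It rose by 4.73 ± 0.22 on the log2 scale (SE, adjusted p = 0.00015, edgeR). Of the relatives between and beside them, gbgt1l8 had 0 counts in every library and could not be compared. gbgt1l1 (ENSDARG00000025275) had 3041 to 3635 counts in ddx4-E4Δ and 3267 to 4088 in WT libraries, gbgt1l2 (ENSDARG00000092718) had 174 to 344 in ddx4-E4Δ and 180 to 221 in WT libraries, and neither passed the test (adjusted p = 0.39 and 0.64).

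The smyhc1 gene (ENSDARG00000099959) encodes a myosin heavy chain of slow muscle fibres. It had 25, 36 and 38 counts in ddx4-E4Δ replicates 1, 2 and 3 and 0 counts in each WT library, so only a few fragments per ddx4-E4Δ library were seen. Its neighbour smyhc2 (ENSDARG00000103969), a second slow myosin gene, had 124, 152 and 98 counts in ddx4-E4Δ and 13, 0 and 9 counts in WT replicates 1, 2 and 3, without overlap. The log2 fold change of smyhc2, 4.04 ± 1.00 (SE), did not pass edgeR's test (adjusted p = 0.069), although it was called without WT replicate 2 (adjusted p = 0.036) and with DESeq2 (adjusted p = 0.00046). The summed stroma and muscle markers, given above, overlapped between the genotypes. Of the 7 tested genes of that list, edgeR called 1, as lower in ddx4-E4Δ (beside a background of 1.77%).

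On the other side of smyhc1, with AOC1 between them, RefSeq placed sspo (ENSDARG00000067859). It encodes SCO-spondin, a large secreted glycoprotein that forms the Reissner fibre in the fluid of the brain and spinal canal. It had 7724, 5648 and 8978 counts in ddx4-E4Δ and 192, 240 and 217 counts in WT replicates 1, 2 and 3. At 93.3 ± 19.7 CPM in ddx4-E4Δ against 2.78 ± 0.35 CPM in WT ovaries (SD, n = 3) it rose by 5.07 ± 0.205 on the log2 scale (SE, adjusted p = 7.4e-05, edgeR), and all 6 fits without 1 library also called it. AOC1 (ENSDARG00000061355) had 115, 14 and 13 counts in ddx4-E4Δ and 10, 0 and 126 counts in WT, with overlap. On the far side of sspo, GFOD1 (ENSDARG00000061363) had 71, 50 and 123 counts in ddx4-E4Δ and 24, 26 and 21 counts in WT, without overlap. The log2 fold change of GFOD1, 1.74, did not pass edgeR's test (adjusted p = 0.12). Beyond smyhc2, cebp1 lay lower in each ddx4-E4Δ library and ttc21a overlapped between the genotypes. The higher counts around smyhc1 did not include every gene of the stretch.

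The order of RefSeq could be used for 17393 genes of the table (53.5%) whose symbol matched, among them 10 of the 32 genes. They lay on 6 chromosomes, with at most 3 on 1 chromosome, and none lay on the chromosome of ddx4. Within 3 placed genes on either side there were 53 other genes, of which 33 were tested. Of these 33, 4 were called as higher (12.1%, beside a background of 1.34%) and 1 as lower (beside a background of 1.77%), with a median log2 fold change of 0.08. The genes called as higher included sspo, gbgt1l4 and ms4a17a.9, of which gbgt1l4 and ms4a17a.9 are relatives of a gene they neighbour.

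PRICKLE3 (ENSDARG00000073996), of a family that acts in planar cell polarity, lay 2 places from mfsd2al2 and was the neighbour called as lower. It had 371, 384 and 336 counts in ddx4-E4Δ and 706, 1949 and 1299 counts in WT replicates 1, 2 and 3, and the log2 fold change was -1.89 ± 0.36 (SE, adjusted p = 0.033, edgeR). With 1 library left out it was called only when that library was WT replicate 1 (adjusted p = 0.018), and in the others its adjusted p reached 0.11.

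Around HMGCLL1 no neighbour had enough counts to be tested. FAM83B (ENSDARG00000078309), 2 places away, had 29, 7 and 0 counts in ddx4-E4Δ replicates 1, 2 and 3, and mlip (ENSDARG00000089920), 3 places away, had 41, 2 and 4 counts. Neither had a count in WT. In both, only ddx4-E4Δ replicate 1 lay above 12 counts, while HMGCLL1 itself was lowest in that library.

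**Figure D4:**
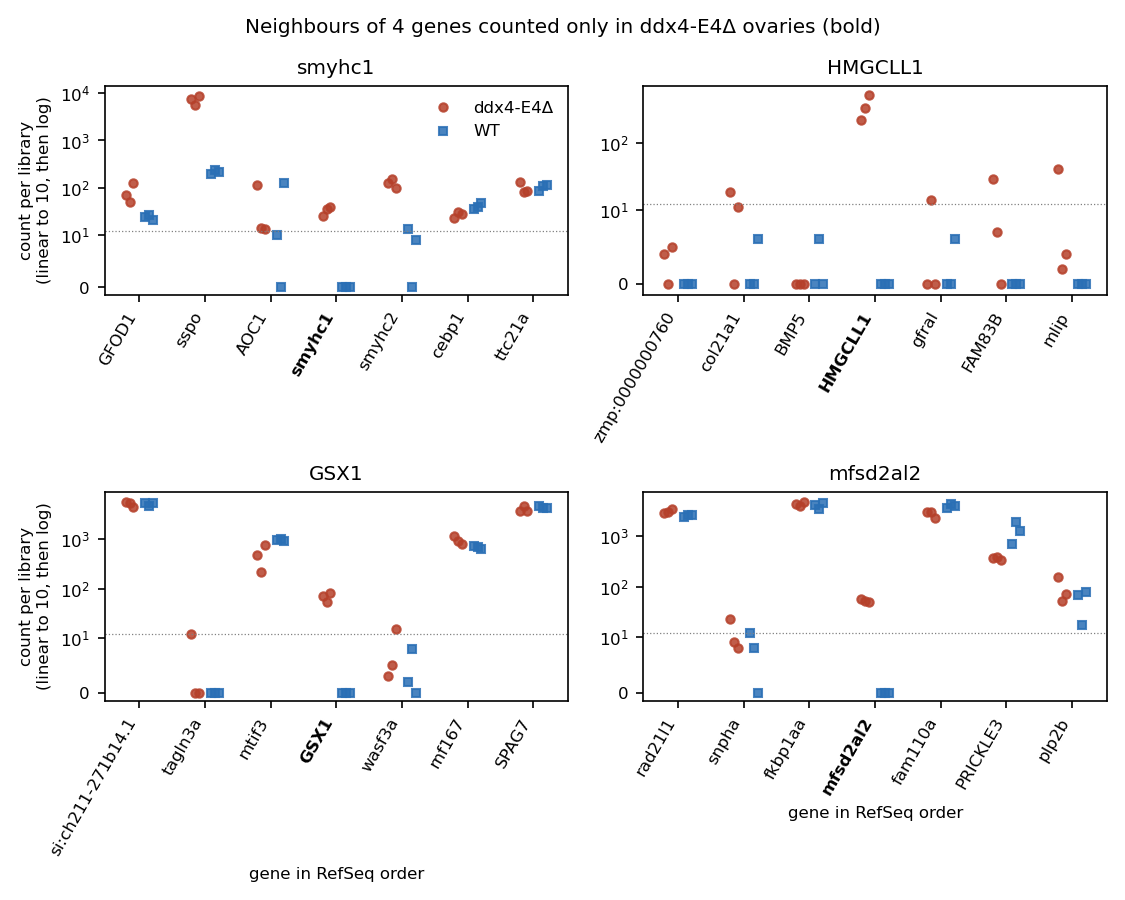
Counts per library (vertical axis, linear up to 10 and logarithmic above) of smyhc1, HMGCLL1, GSX1 and mfsd2al2 (bold) and the 3 placed genes on either side in RefSeq's order. Circles are ddx4-E4Δ and squares are WT libraries, 3 each, and the dotted line marks 12 counts. Beside smyhc1, sspo has 5648 to 8978 counts in ddx4-E4Δ against 192 to 240 in WT. GFOD1 and smyhc2 also lie higher in each ddx4-E4Δ library, while AOC1, cebp1 and ttc21a overlap or lie lower.

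Genes with a clone-based name made up 10 of the 32 (31.3%, beside 19.3% of the table and 13.6% of the genes tested), and 8 had no symbol (25.0%, beside 10.2% and 5.29%). Genes with a gene symbol were 43.8% of the 32, beside 70.5% of the table and 81.1% of the genes tested. The genes tested were counted more deeply, and shares at a like depth were not compared. si:dkey-285b23.3 (ENSDARG00000099796) had the most counts of all 32 genes, with 1038, 946 and 1222 counts in ddx4-E4Δ replicates 1, 2 and 3 and 0 counts in each WT library. At 13.4 ± 1.73 CPM (SD, n = 3) it was at least 83.2-fold higher in ddx4-E4Δ than the level of 12 counts in a WT library. Its share of the summed counts of the 32 genes was 25.9%, 22.5% and 27.0% in these libraries. The other gene of that clone in the table, si:dkey-285b23.4 (ENSDARG00000100716), had 0 counts in each ddx4-E4Δ library and 5, 0 and 4 counts in WT, under the limit of 12 counts in both genotypes.

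si:ch211-212k18.13 (ENSDARG00000105614) had 537, 632 and 343 counts in ddx4-E4Δ and 0, 3 and 0 counts in WT replicates 1, 2 and 3. The table held 5 other genes of that clone. edgeR called none of them (beside 1.34% of all genes tested called as higher). At an unadjusted p under 0.05, 2 were higher (beside 9.98% of all genes tested), and DESeq2 called 1 as higher (beside 3.08%). si:ch211-212k18.5 (ENSDARG00000103316) came closest, with 1657, 2493 and 736 counts in ddx4-E4Δ and 307, 234 and 547 counts in WT, and a log2 fold change of 2.17 ± 0.483 (SE, adjusted p = 0.053, edgeR). It was called with DESeq2 (adjusted p = 2.6e-05), with total-count scaling and with the widest filter (adjusted p = 0.049 with each), and without ddx4-E4Δ replicate 3 (adjusted p = 0.032). In si:ch211-212k18.13 and si:ch211-212k18.5 ddx4-E4Δ replicate 2 was highest and ddx4-E4Δ replicate 3 lowest. The other genes of the clone did not share this order. Among the ddx4-E4Δ libraries, si:ch211-212k18.8 was highest in replicate 3, and si:ch211-212k18.6, si:ch211-212k18.9 and si:ch211-212k18.15 in replicate 1.

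si:ch211-162k9.6 (ENSDARG00000079221) had 194, 343 and 228 counts and si:dkey-276j7.3 (ENSDARG00000097317) had 124, 37 and 164 counts in ddx4-E4Δ replicates 1, 2 and 3, both with 0 counts in each WT library. Of their clone neighbours, si:ch211-162k9.5 and si:dkey-276j7.1 were counted in all 6 libraries, while si:dkey-276j7.2 (ENSDARG00000097743) had 17, 7 and 7 counts in ddx4-E4Δ and 12, 17 and 0 counts in WT replicates 1, 2 and 3. si:ch211-162k9.5 (ENSDARG00000079290) had 1105 to 1659 counts in ddx4-E4Δ and 955 to 1237 counts in WT, and si:dkey-276j7.1 (ENSDARG00000090872) had 1740 to 1907 counts in ddx4-E4Δ and 1127 to 1607 counts in WT. The ranges of si:dkey-276j7.1 did not overlap, and neither gene passed edgeR's test (adjusted p = 0.35 and 0.15). si:dkey-61n16.5 (ENSDARG00000099695) had 83, 144 and 266 counts in ddx4-E4Δ and 0, 0 and 3 counts in WT replicates 1, 2 and 3. The remaining 5 clone-named genes, si:dkey-181i3.8, si:dkeyp-86d6.2, si:ch211-69p5.1, si:ch211-267k22.1 and si:ch73-31h21.2, had 23 to 86 counts in ddx4-E4Δ libraries and 0 counts in each WT library.

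Of the 8 genes without a symbol, ENSDARG00000100498 had 94, 118 and 148 counts in ddx4-E4Δ and 0, 0 and 2 counts in WT replicates 1, 2 and 3. ENSDARG00000117653 had 100, 119 and 75 counts in ddx4-E4Δ and 0 counts in each WT library. ENSDARG00000105038 had 62, 120 and 77 counts in ddx4-E4Δ and 1, 0 and 0 counts in WT replicates 1, 2 and 3. In all 3 genes each ddx4-E4Δ library lay above each WT library, as the rule requires of all 32 genes. The other 5 had 23 to 98 counts in ddx4-E4Δ libraries and 0 to 3 counts in WT libraries. ENSDARG00000117600 was 1 of the 2 genes with counts in 2 WT libraries, 3 in WT replicates 1 and 2, beside 67, 73 and 58 counts in ddx4-E4Δ. No product is assigned to these 8 genes here.

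The Metazoa_SRP gene (ENSDARG00000088785) is a copy of the RNA of the signal recognition particle, which guides new secretory proteins to the endoplasmic reticulum. It had 25, 29 and 23 counts in ddx4-E4Δ and 0, 1 and 3 counts in WT replicates 1, 2 and 3. The symbol belonged to 76 genes of the table, 65 of which had a count. Over all of them the sum was 836, 1062 and 1017 counts in ddx4-E4Δ and 669, 622 and 1471 counts in WT replicates 1, 2 and 3, with overlap. Of the 30 other copies that were tested, none was called by edgeR (beside 3.11% of all genes tested in either direction). At an unadjusted p under 0.05, 4 were lower (13.3%, beside 9.96% of all genes tested) and 0 higher (beside 9.98%). DESeq2 called 1 as lower (3.33%, beside 3.6%). With so many near copies, the share of this copy is uncertain.

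Over names and clones, 112 other genes shared a name stem or a clone with 1 of the 32 genes, and 54 of them were tested. Of these, 2 were called as higher (3.70%, beside a background of 1.34%), gbgt1l4 and ms4a17a.9, and 0 as lower. At an unadjusted p under 0.05, 7 were higher (13.0%, beside 9.98% of all genes tested) and 5 lower (9.26%, beside 9.96%). DESeq2 called 4 as higher (7.41%, beside 3.08%) and 1 as lower (1.85%, beside 3.6%). The median log2 fold change of the 54 was 0.195, beside 0.014 over all genes tested, and 30 of the 54 were Metazoa_SRP copies. Of these copies 0 were higher and 4 lower at the unadjusted limit, so each of the 7 higher genes was another relative.

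Among the ddx4-E4Δ replicates the 32 genes did not follow a common order. In CPM, 8 genes were highest in replicate 1, 12 in replicate 2 and 12 in replicate 3, beside 36.9%, 28.3% and 34.8% of all genes tested. The coefficient of variation (SD over mean of 3 libraries) ran from 0.045 in mfsd2al2 to 0.746 in NPFFR2, with a median of 0.248 against 0.197 over all genes tested. NPFFR2, si:dkey-276j7.3 (0.595) and si:dkey-61n16.5 (0.573) varied most, and these 3 genes differed more than 3-fold between ddx4-E4Δ libraries. After mfsd2al2, si:dkeyp-86d6.2 (0.119) and si:dkey-285b23.3 (0.129) varied least. NPFFR2 and si:dkey-276j7.3 were both lowest in replicate 2 and highest in replicate 3. In 24 of the 32 genes the highest library lay within 2-fold of the lowest. The rule asks for at least 20 counts in each ddx4-E4Δ library, which limited the spread of sparse genes in advance. The genes tested as a whole carry no such limit and were counted more deeply, so nothing is read from the agreement of the replicates.

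At 4 counts per fragment, counting error alone gives a coefficient of variation of 0.395 at the mean of the Metazoa_SRP copy and of 0.061 at that of si:dkey-285b23.3. The observed value was above the counting error in 18 of the 32 genes, beside 83.3% of all genes tested. These shares are not alike, since the genes tested were counted more deeply and were not chosen by their lowest ddx4-E4Δ count. For the sparsest genes the spread between replicates could thus not be told from counting error.

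**Figure D5:**
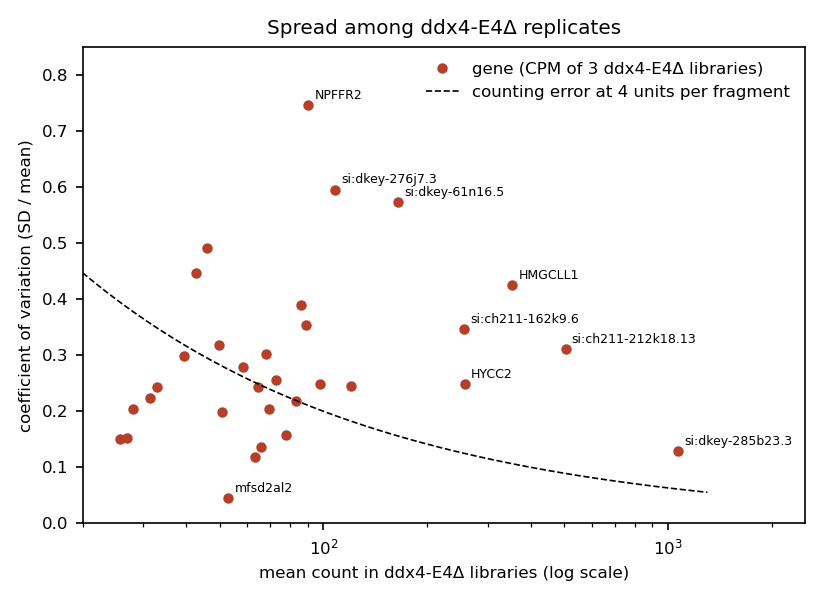
Coefficient of variation of CPM over the 3 ddx4-E4Δ libraries (vertical axis) against the mean count in these libraries (horizontal axis, log scale) for the 32 genes. The dashed line is the counting error at 4 counts per fragment. NPFFR2 lies highest at 0.746 and mfsd2al2 lowest at 0.045.

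The limits of the rule cut through a continuous range of counts. Just inside lay the Metazoa_SRP copy, ENSDARG00000102813 and si:ch73-31h21.2, each with 23 counts in its lowest ddx4-E4Δ library, followed by ENSDARG00000117579 with 24 and smyhc1 with 25. Just outside lay si:dkey-231k6.4 (23, 19 and 19 counts in ddx4-E4Δ), PAX6 (18, 20 and 24), gng14 (53, 18 and 37) and ftr87 (27, 19 and 18). They were followed by si:dkey-88j15.3 (23, 17 and 65) and ccl39.2 (17, 177 and 17). All of these had 0 counts in each WT library. With the limit in WT set at 4 counts in place of 3, 5 more genes would have entered. Among them si:dkey-4i23.7 (ENSDARG00000094295) had 757, 705 and 978 counts in ddx4-E4Δ and 4, 0 and 0 counts in WT, and ly97.3, noxa1, alpi.1 and ENSDARG00000117501 had 22 to 153 counts in ddx4-E4Δ libraries. ANKRD33B (ENSDARG00000015589) had 1000, 796 and 530 counts in ddx4-E4Δ and 5, 0 and 0 counts in WT, and was left out by the same limit. The other gene of that symbol (ENSDARG00000058357) had 6, 22 and 4 counts in ddx4-E4Δ and 5, 6 and 16 counts in WT, with overlap.

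Genes that reached 20 counts in 1 library of a genotype alone were more frequent than genes that did so in all 3. Such genes could have lower counts in the other libraries, as had si:dkey-231k6.4 with 23, 19 and 19 counts in ddx4-E4Δ. With at most 3 counts in each WT library, 172 genes had at least 20 counts in 1 ddx4-E4Δ library alone, 32 in 2 and 32 in all 3. Of the 172, 49 reached 20 counts in replicate 1, 94 in replicate 2 and 29 in replicate 3. The mirrored counts, with at most 3 counts in each ddx4-E4Δ library, were 138 genes in 1 WT library, 63 in 2 and 40 in all 3.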

How the data were processed

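RNA was sequenced from ovaries of 3 ddx4-E4Δ and 3 WT zebrafish at 6 mpf. To make the deposited estimated counts per Ensembl gene, the authors used Cutadapt, STAR (on GRCz11) and featureCounts according to the methods, whereas the submitters' processing notes name HISAT2, StringTie, RSEM and DESeq2. The annotation, and what was done with reads of several possible genes, are not given in the sources used here. The values are whole numbers, not scaled between libraries. They were taken as estimates since they sum to more than the reads sequenced and 4 is the commonest of them above 0.

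The 32 genes and the name lists were chosen with earlier results of these data known. Symbols were matched for 29200 of 32519 genes. Gene order was taken from RefSeq (GRCz12tu) by unique symbol, without coordinates. After filterByExpr and TMM scaling, edgeR 4.0.16 (R 4.3.3) fitted the whole table without a block, and its quasi-likelihood p-values for 19353 genes were Benjamini-Hochberg adjusted. Calls required an adjusted value under 0.05 and a log2 fold change of 1 or more in either direction. CPM values use TMM effective library sizes and are not divided by gene length, so the order of the genes by CPM, and their median beside that of all genes tested, describe depth of counting and not the amount of transcript. Fold bounds set the mean CPM in ddx4-E4Δ against 12 counts in the WT library with the highest such limit (0.161 CPM), and they cover counting error only. Replicates were taken as ovaries of separate fish, since the labels give 3 fish and 3 samples per genotype, though pooling is not addressed. Alternatives were DESeq2 1.42.0, RLE, upper-quartile and total-count scaling, other filters, other limits of the rule, a replicate block and leaving out each library. Genes were named by a fixed rule: the 12 with the highest mean CPM in ddx4-E4Δ libraries, those that share a stem, clone or place, those with a gene symbol, the 3 most and 3 least variable, and those nearest the limits. The relatives and neighbours named with values, and ANKRD33B, were picked after their values were seen. A related gene and a neighbouring gene are not reported here. Figures were drawn with matplotlib 3.10.9.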

Additional observations from a re-analysis of the deposited data

How the results depend on the processing

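The number of genes counted only in ddx4-E4Δ ovaries, 32, became 60, 21 and 5 with lower limits of 10, 40 and 100 counts, 83 with an upper limit of 12 counts in WT, and 39 to 60 when 1 library was left out of the rule. With an upper limit of 0 counts it was 23, and with limits scaled to library size 28. The mirrored number in WT, 40, became 79, 22 and 8 with the lower limits, 108 with the upper limit of 12, and 53 to 78 without 1 library. Fewer conditions on the libraries can only add genes. Of the 32, the other scalings, the filters and DESeq2 called 29 to 32. Leaving out 1 library gave 8 to 23. Over the whole table, 259 genes were called as higher by edgeR and 596 by DESeq2. With 1 library left out, edgeR called 122 to 238 genes of the whole table as higher.

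With the replicate block edgeR called 7 of the 32 and 128 genes as higher over the table. Same-numbered libraries showed little shared deviation (r = -0.074, 0.083 and -0.018 for replicates 1, 2 and 3). Unlike-numbered pairs ran from -0.138 to 0.174. With 3 libraries per genotype these values cannot show whether same-numbered samples shared a batch. PRICKLE3 was not called with the block (adjusted p = 0.065), while sspo, gbgt1l4 and ms4a17a.9 were called with every alternative run. No fitted log2 fold change of sspo, gbgt1l4, ms4a17a.9, PRICKLE3, smyhc2 and si:ch211-212k18.5 reversed in an alternative run. None of the 32 genes reversed either, but the rule had set their sign, so nothing is read from that. The floor of 3 counts in place of 12 raises each fold bound by its construction. The cause of the other differences was not tested. About 5 fragments per library lie behind a count of 20, so for the sparsest of the 32 genes only the presence of reads assigned to them is known.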
